A study of Mus musculus with 4 samples.

Results

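Mymk and Mymx, the 2 genes that encode the membrane fusion proteins of vertebrate muscle, were followed through cultured mouse muscle stem cells by droplet single-cell RNA sequencing. They are 2 of the 32285 gene rows counted in each of 4 deposited matrices, and were taken by their symbols, with no measured value used in the choice. Mymk (ENSMUSG00000009214) lies on chromosome 2 at 27061636 to 27072179, minus strand, and spans 10544 bases with 5 exons in each of its 2 annotated transcripts. Mymx (ENSMUSG00000079471) lies on chromosome 17 at 45600971 to 45602102, minus strand, and spans 1132 bases with 2 exons in each of its 4 transcripts. Positions come from the GENCODE M21 annotation of GRCm38, looked up by gene identifier. The 2 genes lie on different chromosomes and share no reads as neighbours.

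Myoblasts, the dividing progeny of muscle stem cells, leave the cell cycle, switch on Myog and the sarcomere genes, and then merge their plasma membranes into multinucleated fibres. Mymk encodes myomaker, a protein with several membrane-spanning segments that is needed on fusing muscle cells. Mymx encodes myomixer (also called myomerger or minion), a micropeptide with a single membrane anchor. Myomaker is known to act at the early merging of membrane leaflets and myomixer at the later opening of the fusion pore, and the promoters of both are bound by MyoD and myogenin.

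All 4 samples belong to 1 group: muscle stem cells of MyoD-KI mice, kept for 5 days in a serum-rich growth medium, and sorted for a high MyoD-tdTomato signal. MyoD-tdTomato is a red fluorescent reporter of Myod1, so a cell with little of it was removed by the gate. The labels name neither the number of animals nor that of cultures, and the knock-in allele is carried by every sample. The files hold 62627341 to 68898900 unique molecular identifiers (UMIs, tags that count captured molecules) in 5950 to 5974 barcodes each. Between 99.88% and 99.95% of the barcodes of a file were found again in any other, so the 4 files count here as repeats on the same cells, n = 1, and no test between cells was run. Of 5944 barcodes present in all files, 5481 had a mean of at least 1000 genes and under 10% mitochondrial UMIs and were kept. All 7 muscle lineage markers were present, from Myf5 at 54.2 UMIs per 1000000 UMIs of the cells (CPM) to Acta1 at 2134 CPM. The defining markers of other cell types were at or near 0: the summed CPM over kept cells was 1.02 for 3 endothelial, 0.763 for 3 immune and 1.40 for 2 glial genes. Of the 4 fibroblast genes Pdgfra, Dcn and Lum stood at 0.499 CPM or less, and Col3a1, a collagen, at 110 CPM. Of the 3 pericyte genes Kcnj8 stood at 0.0303, Rgs5 at 5.25 and Cspg4 at 12.3 CPM.

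Both genes were well detected. Mymk stood at 554, 552, 551 and 553 CPM in replicates 1 to 4, with a mean of 553 CPM and a 95% Poisson interval of 547 to 558 at the 36436 UMIs of an average file. Mymx stood at 185, 185, 184 and 181 CPM, with a mean of 184 CPM and an interval of 181 to 187 from 12120 UMIs. Replicate 4 was the lowest for Mymx and replicate 3 for Mymk, by a few CPM. Intervals throughout cover counting error only, not variation between animals, cultures or sorts. Over all kept cells Mymx made up 25.0% of the UMIs of both genes together, which is a ratio of captured molecules. It compares the 2 genes only as far as both are captured alike: Mymk has long introns and Mymx hardly any, and whether intronic reads were counted is not given in the sources used here. Each gene is therefore read below against its own highest level.

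None of the other fusion protein genes listed came near them. The closest relatives of myomaker, Tmem8 (the former symbol of Pgap6) and Tmem8b, stood at 0.394 and 1.66 CPM. The placental syncytins Syna and Synb, the osteoclast fusion gene Dcstamp, and the sperm and egg genes Izumo1 and Izumo1r had no UMI in kept cells of any file, where a count of 0 allows up to 0.0485 CPM in the shallowest file (3 counts). Ocstamp, the partner of Dcstamp, stood at 0.0650 CPM and the sperm genes Tmem95 and Spaca6 at 0.258 and 10.3 CPM. 

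Mymk and Mymx were both higher with each step along Myog, the transcription factor that marks commitment to differentiation. Both left their low level beyond the counting intervals in the same bin, at 250 to 500 CPM of Myog. In the 361 cells without a Myog UMI, Mymk stood at 53.2, 57.1, 47.5 and 50.9 CPM in the 4 files, and in the 2031 cells with up to 250 CPM of Myog it was hardly higher, at a mean of 59.0 CPM. It reached 153 CPM at 250 to 500 CPM of Myog, 274 at 500 to 1000, 511 at 1000 to 2000, 962 at 2000 to 4000, 1452 at 4000 to 8000 and 2060 CPM in the 72 cells above that. From the second bin upwards neither the ranges over files nor the counting intervals of neighbouring bins overlapped, and between the first 2 bins the intervals did. Mymx went from 5.60, 3.39, 2.22 and 6.79 CPM without Myog, a range that rests on a mean of 14 UMIs per file, to 6.79 CPM in the second bin. It then stood at 22.2, 51.3, 137, 312, 558 and 771 CPM, again with intervals that overlapped between the first 2 bins only.

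Read against their own highest bin, the 2 curves were offset at the low end. The points given here mark a share of the highest level, not where a gene left its low level. Both genes were highest in the last bin, so the curves meet there by construction. At 500 to 1000 CPM of Myog, Mymk had 13.3% of its highest level and Mymx 6.65%. Mymk passed 10% of its highest bin at an interpolated 487 CPM of Myog (463 to 508 over files) and Mymx at 902 CPM (885 to 917), so the 2 ranges did not overlap. The 50% points lay close together, at 3223 CPM (3178 to 3265) for Mymk and 3542 CPM (3481 to 3637) for Mymx. The Mymx share of both genes' UMIs needs no scaling, but a rise in it shows only a larger relative gain of Mymx. It gives no order of onset. The share was 7.84% without Myog (95% interval 4.37% to 12.8%) and 10.3% in the second bin. It was 12.6%, 15.8%, 21.2% and 24.5% in the next 4, and 27.8% at 4000 to 8000 CPM. In the highest bin it was 27.2% (25.2% to 29.3%), within the interval of the bin before. When the level of the lowest bin was subtracted from every bin, an alternative added after the data were seen, the 10% points moved closer, to 640 CPM for Mymk and 933 CPM for Mymx.

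**Figure D1:**
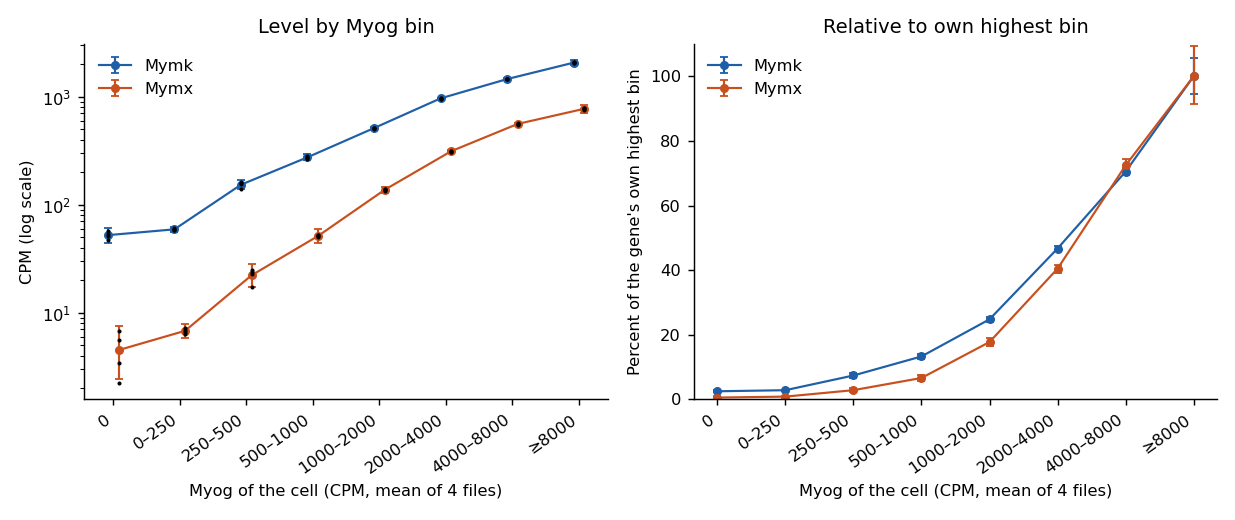
Left: Mymk and Mymx in CPM (log axis) by Myog bin, means of 4 files with 95% Poisson intervals and each file as a small black point. Right: the same levels as a percent of each gene's highest bin. Mymk runs above Mymx up to 2000 to 4000 CPM of Myog (46.7% against 40.5%). The curves are close at 4000 to 8000 CPM (70.5% against 72.4%) and meet in the last bin by construction.

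Along the sarcomere genes the order was not clear. Acta1 (skeletal alpha-actin) and Myh3 (embryonic myosin heavy chain) were summed as a measure of how far contractile genes had come on. Below 50 CPM of that sum Mymk stood at 83.1 CPM and Mymx at 14.3 CPM, and at 50 to 200 CPM at 94.7 and 19.3 CPM. At 200 to 500 CPM both were higher, Mymk to 326 CPM (16.9% of its highest bin) and Mymx to 90.4 CPM (16.6%). The 10% points were next to each other, 165 CPM for Mymk (158 to 173 over files) and 179 CPM for Mymx (176 to 182), and with the lowest bin subtracted their order turned, to 238 CPM for Mymk and 219 CPM for Mymx. No order of onset can therefore be read along this axis.

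Further up, Mymx had its highest bin before Mymk did and was then lower again. It reached 50% of its highest bin at 1666 CPM of Acta1 and Myh3 (1545 to 1740 over files), Mymk at 3345 CPM (3005 to 3547). These points refer to unlike bins, 5000 to 10000 CPM for Mymx and the last bin for Mymk. They therefore do not show that Mymx gained on Mymk. Mymx was highest at 5000 to 10000 CPM, with 550, 554, 547 and 531 CPM in the 4 files. In the 82 cells of at least 20000 CPM it stood at 391, 428, 426 and 400 CPM, so all 4 files were lower there. Mymk went on from 1366 CPM at 5000 to 10000 to 1753 and 1933 CPM in the 2 bins above. The Mymx share of both genes was 14.7% in the lowest bin and 28.1% at 500 to 1000 CPM, lay between 26.9% and 28.5% up to 10000, and was 23.1% (22.3% to 23.8%) and 17.6% (16.1% to 19.1%) in the last 2 bins. Acta1 and Myh3 are part of the denominator of CPM in these cells, but the share of the 2 genes is free of it.

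**Figure D2:**
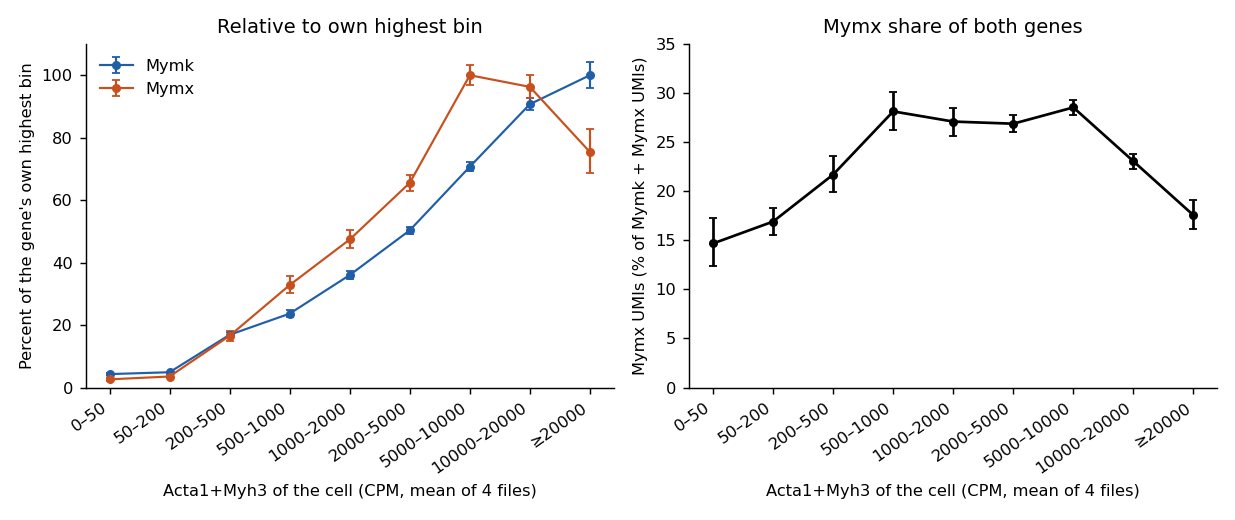
Left: each gene as a percent of its own highest bin along Acta1+Myh3 bins, with 95% Poisson intervals. Right: Mymx UMIs as a percent of Mymk and Mymx UMIs with 95% Clopper-Pearson intervals; the share is 28.5% at 5000 to 10000 CPM and 17.6% in the last bin.

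The lower share of Mymx in the most advanced cells was seen at each level of Myog. Among cells with 250 to 2000 CPM of Myog, Mymx made up 24.5% of both at 5000 to 10000 CPM of Acta1 and Myh3 and 14.6% above that (37 and 62 cells). At 2000 to 4000 CPM of Myog the 2 values were 27.4% and 19.2% (159 and 173 cells), and from 4000 CPM they were 29.4% and 25.7% (328 and 240 cells). In each of the 3 pairs neither the counting intervals nor the ranges over files overlapped. Mymk itself was higher in the more advanced cells of every pair, from 790 to 1447, from 1216 to 1728 and from 1558 to 1949 CPM. Mymx was higher in the third pair only. It stood at 255 and 247 CPM in the first pair and at 459 and 412 CPM in the second. In the third it stood at 649 and 674 CPM (617 to 665 and 669 to 681 over files), with counting intervals that overlapped.

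Where Myog was high, both genes were above their low level in cells whose sarcomere genes were still low. In the 129 cells with 2000 to 4000 CPM of Myog and under 200 CPM of Acta1 and Myh3, Mymk stood at 418 CPM (403 to 435 over files) and Mymx at 140 CPM (127 to 145). In the 2245 cells with the same low Acta1 and Myh3 but under 250 CPM of Myog they stood at 54.1 and 6.21 CPM. The Mymx share was 25.1% in the first set and 10.3% in the second. Without such a Myog level, some Acta1 and Myh3 did not go with much of either: the 133 cells with 200 to 1000 CPM of Acta1 and Myh3 and under 250 CPM of Myog had 104 CPM of Mymk and 10.4 CPM of Mymx.

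Seen cell by cell at equal depth over all Myog levels together, Mymx came mostly with Mymk, while Mymk often came alone. Each cell was thinned to 5000 UMIs, which 5197 of the kept cells had in every file and 284 had not. At that depth 58.7% of cells had a Mymk UMI (57.3% to 60.0%; 58.3% to 58.8% over files) and 32.2% a Mymx UMI (31.0% to 33.5%; 31.9% to 32.5% over files). Both were found in 29.5% of cells, where the product of the 2 shares is 18.9%, Mymk alone in 29.2%, Mymx alone in 2.73% and neither in 38.6%. Within each Myog bin the share with both was above the product by far fewer percentage points. The gap was widest at 1000 to 2000 CPM of Myog, with 29.6% against a product of 27.2%. It was 0.955% against 0.738% up to 250 CPM, 56.5% against 55.7% at 2000 to 4000 and 81.7% against 81.3% above 8000 CPM. The pooled gap therefore says little about cells of like Myog. Within bins of Acta1 and Myh3 the gap was widest at 200 to 500 CPM, with 22.0% against a product of 17.5%. Of all cells with Mymx 91.5% also had Mymk, and of all cells with Mymk 50.3% also had Mymx. The first of these shares was lower where Myog was low. It was 35.4% without Myog (4.33% to 77.7%), 29.6% up to 250 CPM and 51.7% at 250 to 500. At 500 to 1000 CPM it was 68.6%, and at 2000 to 4000 CPM 94.1%. Mymk had 36436 UMIs in an average file against 12120 of Mymx, which favours its detection. With Mymk thinned further to the summed level of Mymx, 74.0% of Mymx cells had Mymk and 58.3% of Mymk cells had Mymx. The difference was smaller but in the same direction. Both shares count the same cells with both genes, so they differ only because more cells had Mymk than Mymx. They give no order of onset.

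**Figure D3:**
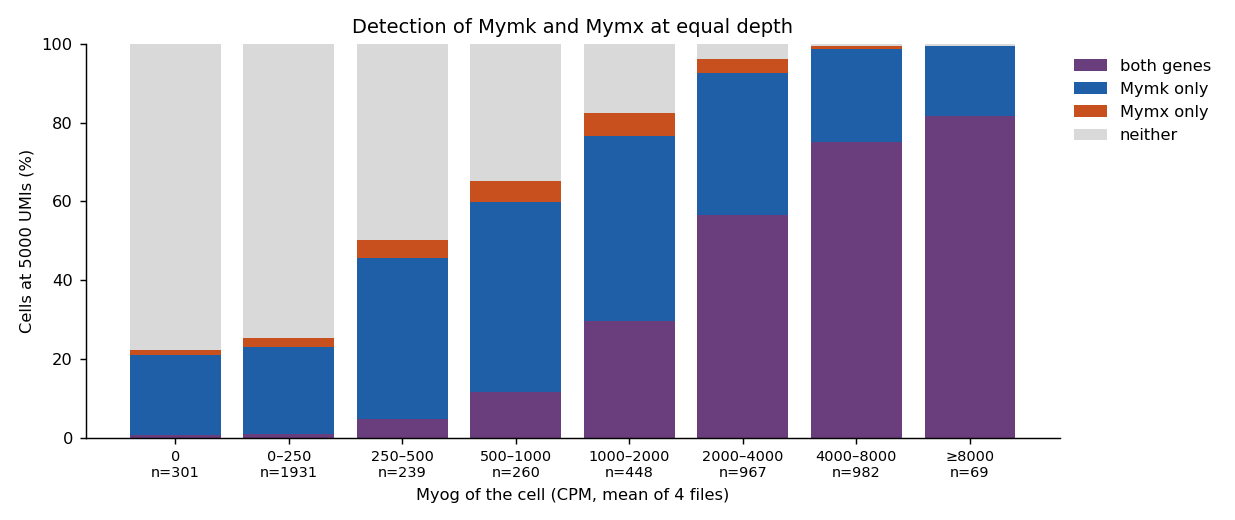
Percent of cells with both genes, Mymk only, Mymx only or neither, by Myog bin, each cell thinned to 5000 UMIs (means of 4 files; n is the number of cells). Cells with both go from 0.722% without Myog to 81.7% in the highest bin, and Mymk alone is most frequent, at 48.2%, in cells with 500 to 1000 CPM of Myog.

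In the plot of detection by Myog bin, Mymk alone is the most frequent state of cells with 500 to 2000 CPM of Myog. Mymk alone was found in 20.2% of cells without Myog, 48.2% at 500 to 1000 CPM, 47.0% at 1000 to 2000 and 17.8% above 8000 CPM. Mymx alone peaked at 5.98% of cells at 1000 to 2000 CPM of Myog, where 29.6% had both. Of the Mymk cells, 19.4% had Mymx at 500 to 1000 CPM, 38.6% at 1000 to 2000, 60.9% at 2000 to 4000 and 82.1% in the highest bin. With no thinning and all 4 files counted together, 2887 cells had both genes, 1824 Mymk only, 125 Mymx only and 645 neither. The 125 cells with Mymx only held little of it, with a median of 1 and at most 6 Mymx UMIs over the 4 files, and they had 129 CPM of Myog and 79.3 CPM of Acta1. The cells with both had 2897 CPM of Myog and 3474 CPM of Acta1, at a median depth of 11696 UMIs against 11191.

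A low level of Mymk was present where no Myog UMI was counted. Such cells were shallower than those with up to 250 CPM of Myog, with medians of 8009 and 11425.5 UMIs. A missing UMI need not mean that Myog was absent. In the 361 cells without a Myog UMI in any file, Mymk kept 9.44% of its level over all kept cells (8.06% to 11.0%) and Mymx 2.45% (1.33% to 4.07%). Of 10 other muscle transcripts looked at in the same way, Myh3, Actc1, Myl1, Ckm and Acta1 kept 1.93% to 3.27%. Mylpf and Tnnc2 kept 5.68% and 6.01%, and Ttn, Tnnt3 and Tnnt1 kept 12.6%, 16.9% and 24.2%, so Mymk lay between the second and the last of these sets. No cell type that should lack Mymk was present to give its background, which is why these other transcripts are set beside it. The Mymx share of both genes in these cells, 7.84%, was below the 25.0% over all kept cells. The share in free RNA was not measured, and its part in these counts was not tested.

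Mymk also returned in the same cells of different files. Among cells under 250 CPM of Myog at 5000 UMIs, 22.7% had a Mymk UMI in a file, and of those that had one, 40.6% had one again in another file, a ratio of 1.79. For Mymx the figures were 3.07% and 13.0%, a ratio of 4.25. For Acta1, which was more frequent in these cells, they were 30.4% and 35.7%, a ratio of 1.17, and for the rarer Myh3 7.27% and 14.9%, a ratio of 2.05. The ratio of Mymk lay between those of Acta1 and Myh3, and the ratios were higher for the rarer genes. How far different files count the same molecules again was not tested here, and the values of Acta1 and Myh3 in the same cells and files are given for that reason. Within the same Myog-poor cells Mymk was 48.1, 53.2 and 71.9 CPM in the lowest, middle and highest of 3 equal sets by Myod1, and Mymx 4.63, 5.73 and 8.94 CPM. The top set was above the other 2 beyond the counting intervals for Mymk. Myog was also unequal there, at 47.3, 63.1 and 81.0 CPM, as were depth (medians of 9634, 11457 and 11575 UMIs) and Pax7, a stem cell factor (145, 105 and 78.9 CPM), and their part in the difference was not tested.

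Once Myog was high, Mymk was in nearly every cell and Mymx was not. Of 2095 cells with at least 2000 CPM of Myog, 2 had no Mymk UMI in any file and 168 (8.02%) had no Mymx UMI. Mymk had a median of 1114 CPM per cell, with 252 CPM at the 5th and 2520 CPM at the 95th percentile. Mymx had a median of 310 CPM, with 0 at the 5th and 1310 CPM at the 95th percentile. The coefficient of variation that was shared between files was 58.1% for Mymk, 95.4% for Mymx and 39.1% for Myog. It leaves out noise that differs between files, but holds the capture noise of any molecules counted in several files, which weighs more on a rarer transcript such as Mymx. Over these cells the levels of Mymk and Mymx on the log2 scale correlated with r = 0.23, and Mymk with Acta1 with r = 0.59, against 0.28 for Mymx with Acta1. These correlations are across cells of the same libraries and describe them only.

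Some cells with plenty of Mymk had no Mymx at all. This set was chosen after its values were seen, and its description is not evidence for any rule. Of 1245 cells with at least 1000 CPM of Mymk, 91 (7.31%) had no Mymx UMI in any of the 4 files. Their Mymk counts over the 4 files had a median of 54 and a lowest value of 9 UMIs, in which a molecule may have been counted in more than 1 file. How many of these cells lack Mymx only by sampling was not tested. The cell with the most Mymk held 159 Mymk UMIs over the 4 files and 17665 CPM of Acta1. The 91 cells were shallower than the 741 with at least 300 CPM of Mymx (Mymx 300 to 600 and above: medians of 11184 and 11107 UMIs against 8792). Some muscle genes lay closer than 2-fold: Mymk was 1614 against 1717 CPM, Acta1 6543 against 7132 CPM and Myog 3988 against 4821 CPM. So did Mef2c, a cofactor of the muscle regulators, at 1017 against 1419 CPM. Pax7 did not, at 18.9 against 4.27 CPM, nor did Mki67, a gene of dividing cells, at 36.2 against 17.2 CPM. Of their UMIs in the 91 cells, 36.4% for Pax7 and 41.7% for Mki67 came from 1 cell. 

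Between these 2 sets 66 of 4332 genes of at least 30 CPM on either side, 1.52%, were 2-fold higher without Mymx, and 69 genes, 1.59%, were 2-fold lower, in the same direction in each file. Named are the 8 with the largest difference on each side. Esr1, which encodes the estrogen receptor alpha, stood at 110 CPM without Mymx and at 16.0 CPM with it, a log2 difference of 2.70 (2.49 to 2.99 over files), and had a UMI in 55 of 91 against 209 of 741 cells. Car3, a carbonic anhydrase of muscle and fat, stood at 728 against 181 CPM. Igfbp5, Spock1, Hist1h1b, Prss23, Spsb1 and Npr3 followed, with log2 differences of 1.98 to 2.61, but 50.3% of the Hist1h1b UMIs and 39.9% of the Igfbp5 UMIs of the 91 cells came from 1 cell. On the other side stood Plac1, Srgap1, Smim6, Ctrb1, Rian, Dpysl5, Frem2 and Sept4, with log2 differences of -2.65 to -1.66, Plac1 at 4.82 against 33.2 CPM and Sept4 at 30.5 against 97.7 CPM.

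The difference was graded across cells of like Mymk, but the steps hold the cells from which Esr1 and Car3 were picked. The direction between their end steps was therefore set in advance. From no Mymx through under 100, 100 to 300, 300 to 600 and at least 600 CPM of Mymx (91, 153, 260, 290 and 451 cells), Esr1 stood at 110, 58.6, 36.5, 22.6 and 11.6 CPM. Car3 stood at 728, 579, 348, 220 and 154 CPM over the same steps, and Gpx3, a secreted glutathione peroxidase, at 509, 357.7, 293, 178 and 115 CPM. Spg21 and Gpx3, like the steps, were picked after their values were seen. Spg21 ran the other way, at 236, 276, 375, 488 and 726 CPM. Mymk was 1614, 1657, 1628, 1668 and 1750 CPM in these sets and Myog 3988, 3982, 4186, 4392 and 5110 CPM, so Mymk hardly moved and Myog was higher in the last. Among the part of these same cells with 8000 to 15000 UMIs, 49 had no Mymx. The log2 difference there was 2.38 for Esr1, 1.96 for Car3, 1.89 for Gpx3 and -1.61 for Spg21.

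Cycling cells had less of both genes, yet a number of them had both in every file. Cells were called cycling at 150 CPM or more of Mki67 and Top2a, which encode proteins of dividing cells, among the 4282 cells with a mean total under 15000 UMIs; 1392 were cycling and 2890 were not. Mymk stood at 154 CPM in cycling and 824 CPM in other cells, a log2 ratio of -2.42 (-2.44 to -2.39 over files). Mymx stood at 45.0 and 280 CPM, a log2 ratio of -2.64 (-2.70 to -2.59). Myog differed nearly as much, at 627 against 2748 CPM, and Acta1 more, at 220 against 3111 CPM. At 5000 UMIs, 36.2% of cycling cells had Mymk, 12.6% had Mymx and 9.24% had both, against 71.4%, 42.3% and 40.0% of other cells (1333 and 2665 cells at that depth). Without thinning the shares were 50.5%, 18.7% and 14.9% against 76.3%, 48.2% and 46.5%, at median depths of 10433 and 9661 UMIs.

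At matched Myog the difference was smaller and did not vanish. At 1000 to 2000 CPM of Myog, 104 cycling cells had 273 CPM of Mymk and 205 other cells 569 CPM, a log2 ratio of -1.06 (95% interval -1.24 to -0.88). For Mymx the levels were 67.5 and 132 CPM, a log2 ratio of -0.97 (-1.35 to -0.59). At 2000 to 4000 CPM (128 and 622 cells) the ratios were -0.91 (-1.02 to -0.79) for Mymk, from 545 against 1023 CPM, and -0.55 (-0.73 to -0.36) for Mymx, from 220 against 322 CPM. At 4000 to 8000 CPM (51 and 840 cells) they were -0.69 and -0.41. Myog itself had log2 ratios of -0.03, -0.13 and -0.13 in these 3 bins, while Acta1 had log2 ratios of -2.73, -2.56 and -1.87. Both fusion genes were thus far closer between cycling and other cells of like Myog than Acta1 was. Below 1000 CPM of Myog the intervals of the Mymx ratio included 0 in each of the 4 bins, and those of the Mymk ratio included 0 in the bin without Myog only.

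**Figure D4:**
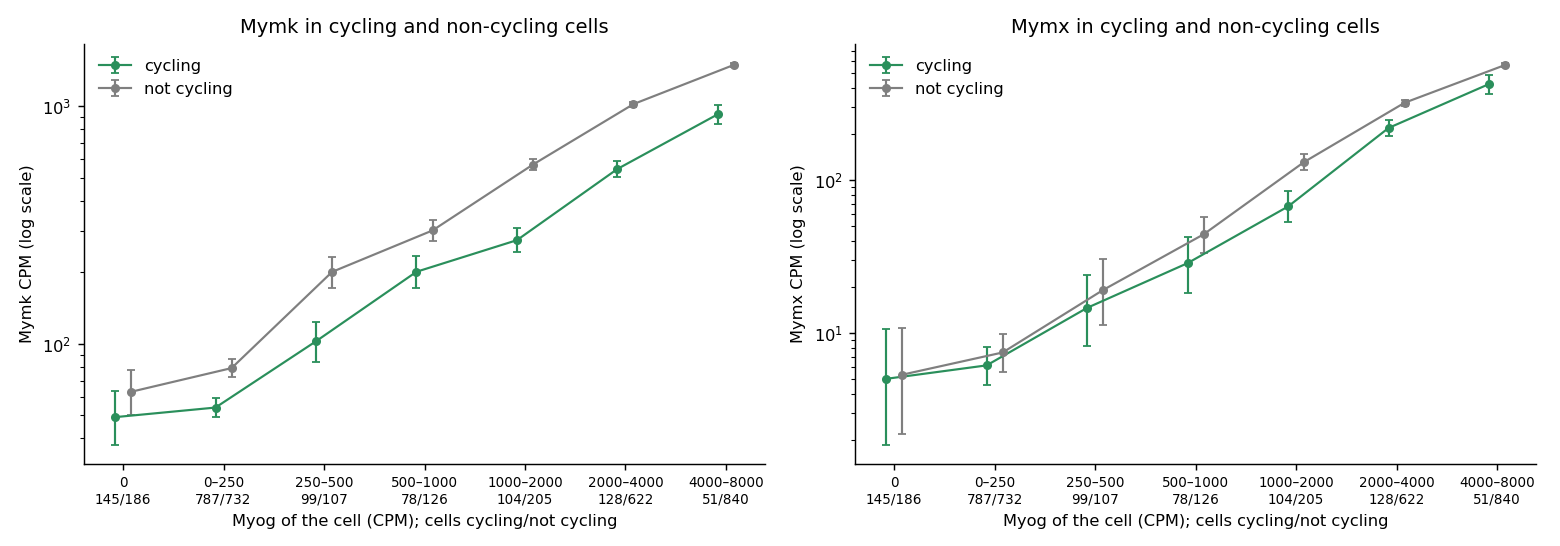
Mymk (left) and Mymx (right) in CPM (log axes) by Myog bin in cycling and non-cycling cells, means of 4 files with 95% Poisson intervals; the numbers under each bin count cycling and other cells. The mean of Mymk is lower in cycling cells in every bin, at 545 against 1023 CPM for 2000 to 4000 CPM of Myog. Mymx is at 220 against 322 CPM in the same bin.

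Of the 1392 cycling cells, 372 had Mymk in all 4 files, 112 had Mymx and 99 (7.11%, 5.82% to 8.59%) had both. These 99 cells had medians of 729 CPM of Mymk, 353 CPM of Mymx, 3269 CPM of Myog and 275 CPM of Mki67 and Top2a, at a median of 10230 UMIs. Over all cycling cells the median of Mki67 and Top2a was 532 CPM, so the cells with both genes lay nearer to the 150 CPM that define the class. Ccnb1, the mitotic cyclin, stood at 201 CPM in them against 154 CPM over all cycling cells, and Pcna, of the replication fork, at 71.6 against 167 CPM. Cdkn1a, the cell cycle inhibitor p21, stood at 1290 against 412 CPM. No doublet caller was run, the limit on the total removed 1199 cells, and the part of doublets in these cells was not tested. By strength of the cycling genes, Mymk was 965 CPM in the 1691 cells without Mki67 or Top2a, 644 CPM below 150 CPM of them, then 201, 117 and 123 CPM up to 1200, and 172 CPM in the 351 cells above. Mymx ran likewise, at 296, 259, 76.5, 28.1, 28.7 and 46.0 CPM, and so did the share of cells with 2000 CPM of Myog, from 57.4% to 5.03% and back to 12.5%.

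Against other genes of myoblast fusion, the differences of Mymk and Mymx along Myog were large. Non-cycling cells with at least 2000 CPM of Myog (1534 cells) were set against those under 250 CPM (918 cells). Mymk stood at 1324 against 76.3 CPM, a log2 difference of 4.10 on the scale of CPM plus 1 (4.05 to 4.14 over files), which ranks 64 among 8589 genes of at least 10 CPM on either side. Mymx stood at 475 against 7.13 CPM, a log2 difference of 5.89 (5.62 to 6.26), rank 10, next to Myh3 at rank 6 and Acta1 at rank 17. Both were among the 8.34% of genes that were 2-fold higher in each file's direction; 18.7% were 2-fold lower, 27.1% in all, and the median of all genes was -0.26. The sides were made by Myog and the members follow it, so the size and not the call is the description here. The 4 fibroblast markers summed to 47.2 CPM on the high and 209 CPM on the low side and the 3 pericyte markers to 7.03 and 36.6 CPM, nearly all of it Col3a1, Rgs5 and Cspg4, while Lum was at 0 on both; their part in the comparison was not tested.

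Most other fusion genes were present on both sides. Of 18 tested adhesion and surface genes 3 were higher, 6 lower and 9 not called, with a median of -0.27. Over all genes 8.34% were higher and 18.7% lower, with a median of -0.26. The junction protein Jam3 stood at 314 against 76.7 CPM, the sialomucin Cd164 at 196 against 68.6 CPM and the protease Adam12 at 184 against 86.4 CPM. The promyogenic receptor Boc stood at 3.03 against 26.6 CPM, its partner Cdon at 208 against 432 CPM, the tetraspanin Cd9 at 93.2 against 270 CPM, and Vcam1, Itga3 and Kirrel were lower too. The cadherins Cdh15 (72.9 against 100 CPM) and Cdh2 (201 against 249 CPM) were not called.

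Of 16 tested genes of actin remodelling 3 were higher, 3 lower and 10 not called, with a median of -0.32, beside 8.34% higher and 18.7% lower over all genes. The higher ones were the Rac activator subunit Elmo1 (42.7 against 4.98 CPM), the exchange factor Trio (183 against 52.5 CPM) and the membrane-bending protein Bin1 (1182 against 291 CPM). The lower ones were Dock1 (8.07 against 45.2 CPM), which is the partner of Elmo1, Wasf2 and Arf6. Rac1 and Cdc42, the small GTPases themselves, stood at 118 against 180 and at 495 against 379 CPM and were not called.

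Of 9 tested genes of the membrane and phosphatidylserine list, 3 were higher, 3 lower and 3 not called, with a median of -0.58. For this list and the next 2, the shares over all genes were 8.34% higher and 18.7% lower. Cav3, the muscle caveolin, stood at 231 against 5.32 CPM, the repair protein Dysf at 64.6 against 7.57 CPM and Tmem182 at 51.2 against 1.48 CPM. The phosphatidylserine binders Anxa1 and Anxa5 stood at 55.7 against 574 and 53.7 against 255 CPM, and Ehd2 at 6.66 against 55.3 CPM. Of 5 genes of TGF-beta signalling, which limits fusion, the ligand Tgfb1 (8.23 against 44.9 CPM) and its receptor Tgfbr2 (6.03 against 27.4 CPM) were lower, and Smad3 was higher (24.1 against 11.3 CPM). Of 11 upstream transcription factors Mef2a, Mef2c, Mef2d and, by construction, Myog were higher and Myf5 and Tcf3 lower; Mef2c stood at 909 against 26.5 CPM. With TMM scaling the median of all genes was 0.13 in place of -0.26, those of the adhesion and actin lists turned to 0.11 and 0.05, and 1078 genes were higher and 987 lower, so that 52.2% instead of 30.8% of calls were higher. Under TMM Ncam1 and Myod1 were called higher as well, and Cdon, Wasf2 and Arf6 were no longer called lower. The differences of 6 tested genes that were not called, Cdh2, Neo1, Cd81, Actr3, Cttn and Tcf12, changed sign.

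**Figure D5:**
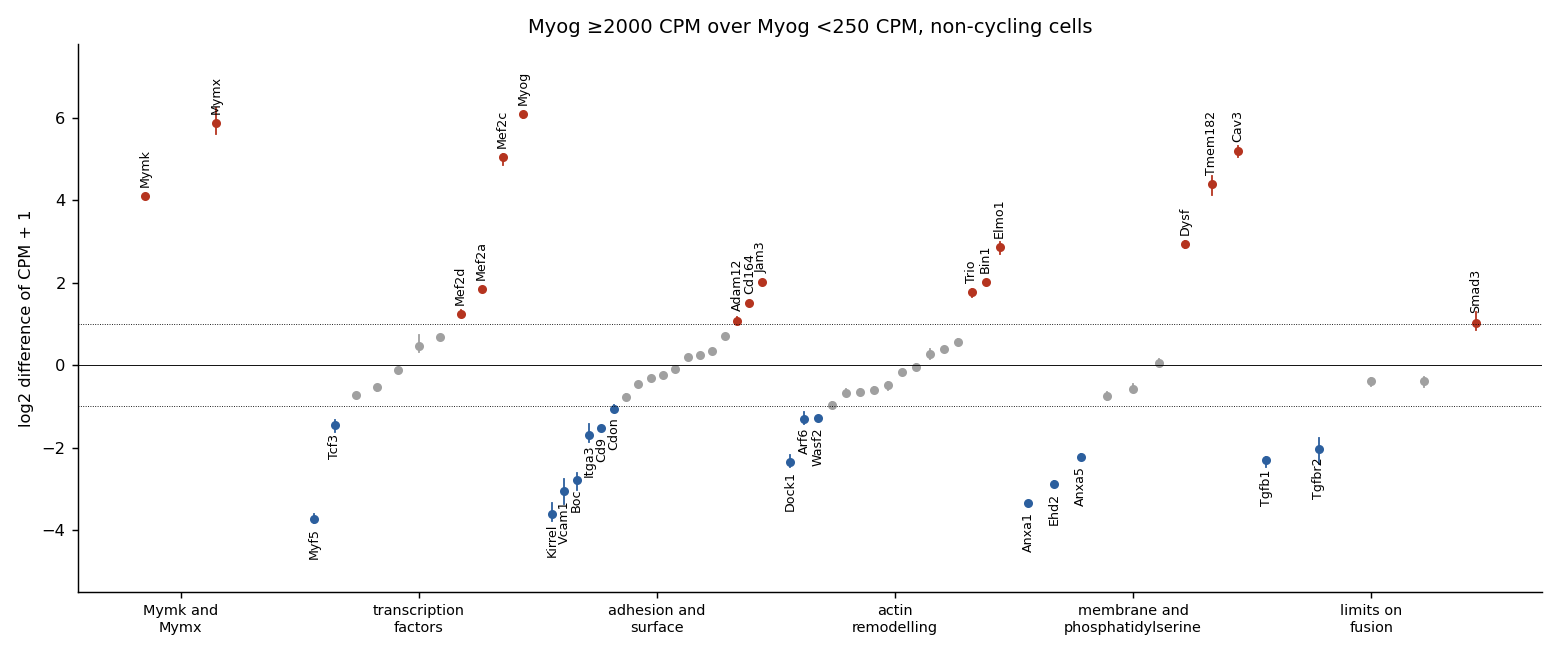
Difference on the log2 scale of CPM plus 1 between non-cycling cells with at least 2000 and under 250 CPM of Myog, for tested genes by role; points are means of 4 files, lines the range over files, dotted lines mark 2-fold. Mymx (5.89) and Mymk (4.10) lie above all adhesion, actin and fusion-limiting genes. Cav3 (5.20), Tmem182 (4.41) and the transcription factor Mef2c (5.05) lie between them, and Myog (6.11) lies above both.

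The genes most like Mymk and Mymx were taken over groups of cells. Likeness was the Pearson correlation of log2 CPM plus 1 over 41 groups of cells by Myog, Acta1 and Myh3, and cycling call, which held 4809 of the kept cells, for 8084 genes. The groups share libraries and the choice of axes, so the values are a description. The other member was left out of each list and placed against it. For Mymk the 10 highest were Bin1 (r = 0.990), Svbp, Cobl, Enah, Tm6sf1, Klhl41, Tmem38b, Tmem38a, Hjv and Tnnt3 (0.981), and Mymx came at rank 7 with 0.983. For Mymx they were Fndc5 (0.986), Enah, Smim5, Akt2, Tmem38b, Sntb1, Svbp, Cobl, Ilkap and Tead4 (0.975), and Mymk came at rank 2. Svbp, Cobl, Enah and Tmem38b were on both lists. The axis genes themselves were less alike: Myog had r = 0.85 with Mymk and 0.88 with Mymx, Acta1 0.86 and 0.81, and Myh3 0.89 and 0.83. Cobl and Enah encode actin regulators and Bin1 a membrane-bending protein, as background.

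Cells that stood apart had less of both genes. The 467 cells with under 1000 CPM of Malat1, a nuclear RNA, had 426 CPM of Mymk and 95.5 CPM of Mymx, against 561 and 190 CPM in the rest, and Myog at 1411 against 1830 CPM. The 1199 cells with a total of 15000 UMIs or more had 478 CPM of Mymk and 156 CPM of Mymx, against 595 and 200 CPM below, and Myog at 1415 against 2023 CPM. Without the first set Mymk passed 10% of its highest Myog bin at 468 CPM and Mymx at 957 CPM. Without the second the points were 515 and 1066 CPM, so Mymk passed its 10% at a lower Myog in either case.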

How the data were processed

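The authors deposited unnormalized UMI counts for each gene and barcode. Per the file headers Cell Ranger 7.1.0 made them; the submitters' processing notes name Cell Ranger 3.1.0 and the builds mm10 and GRCm39, and which one applies to these files is not given in the sources used here. Whether intronic reads were counted and how the authors called barcodes are not given either. The members and gene lists were chosen with earlier results of these data known.

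Levels are CPM, summed UMIs of a gene per 1000000 UMIs of the same cells, computed in each of the 4 files and averaged; a cell's Myog and Acta1+Myh3 are its mean CPM over files. Onset was interpolated between bin means on a log scale. Thinning to 5000 UMIs used exact hypergeometric expectations. The confidence level is 95%, at the mean count of 1 file: Poisson for counts, Clopper-Pearson for shares, conditional binomial for ratios. PCR and repeat libraries are not independent molecules, so these cover counting error only. A gene was called at a 2-fold difference of CPM plus 1 with the same sign in each file, at 10 CPM or more on either side. With n = 1 no count model was fitted; edgeR 4.0.16 and DESeq2 1.42.0 gave only scaling factors. Named genes were those of the lists and the 10 most alike for each member. The calling rule, the thinning and the interpolation were tested on simulated data. Python 3.11.15, numpy 2.4.6, scipy 1.17.1 and pandas 2.3.3 were used. Neither gene had an entry in the RefSeq promoter table, and no sequence is printed.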

Additional observations from a re-analysis of the deposited data

Results flagged for a closer look

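Of 43 values of Mymk and Mymx computed per file, 3 had 1 of the 4 files far from the others relative to their range. Chance alone flags about 5% of such values. Mymx at 4000 to 8000 CPM of Myog stood at 541 CPM in replicate 4 and at 563 to 567 CPM in the others. The Mymx log2 ratio of cycling over other cells with at least 2000 CPM of Myog was -0.87 in replicate 2 and -0.76 to -0.74 in the others. The share of cells with Mymk at 5000 UMIs was 58.3% in replicate 1 and 58.7% to 58.8% in the others. All 3 gaps are smaller than the full width of the counting interval of 1 file, and none turned a direction.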

How the results depend on the processing

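No paired analysis was possible because all samples belong to 1 group and the results come from no test. Of 206 values of the main results under an alternative, 150 stayed within the counting interval or range over files of the reported value (counts of genes, within 1.5 times) and 56 moved; of 135 others, 92 stayed and 43 moved. A reversal could be scored only for log2 ratios and differences, and none of those tallied reversed. Under TMM scaling the medians of all genes and of the adhesion and actin lists changed sign, as did 6 genes that were not called. With the lowest bin subtracted, the order of the 10% points along Acta1+Myh3 also turned. Along Myog, Mymk reached 10% of its highest bin before Mymx under each alternative run: at 542 and 959 CPM with a stricter cell filter (2000 genes, 5% mitochondrial UMIs), 365 and 639 with 10 equal groups, 640 and 933 with the lowest bin subtracted, 515 and 1066 without cells of 15000 UMIs or more; Mymx alone moved to 957 with CPM averaged over cells and to 957 without Malat1-poor cells. Leaving out each file gave 856 to 907 CPM for Mymx. Along Acta1+Myh3, Mymk reached 50% at 3863 CPM (stricter filter), 2990 (averaged over cells), 2497 (10 groups) and 3648 (lowest bin subtracted; Mymx 1770). The levels of Mymk and Mymx were 513 and 168 CPM with the stricter filter, 573 and 191 without mitochondrial genes in the denominator, 561 and 190 without Malat1-poor cells and 595 and 199.6 without cells of 15000 UMIs or more.

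The Mymx percent of both genes in the highest Acta1+Myh3 bin was 16.0% with the stricter filter and 23.0% with 10 groups, whose top group is wider; in the highest Myog bin it was 30.2% without Malat1-poor cells. Cells with both genes were 27.5% with the stricter filter, and 22.3%, 36.9% and 38.5% at 3000 UMIs, 8000 UMIs and no thinning. Mymx cells with Mymk were then 87.3%, 93.5% and 94.2%, and Mymk cells with Mymx 44.4%, 56.0% and 55.5%. With Mymk thinned to the level of Mymx the 3 values were 23.8%, 74.0% and 58.3%. In cells with at least 2000 CPM of Myog, the cycling over other log2 ratio of Mymk was -1.03 with cycling set at 150 CPM, -0.92 at 300 CPM, -0.82 at 600 CPM (Mymx -0.56) and -0.88 with no limit on the total. Of all genes, 1078 were higher and 987 lower with Myog by TMM scaling, 1078 and 989 by median ratio, 2721 lower with no filter on low counts, and 346 and 503 at 4-fold, where 8 and 10 fusion-related genes were called. With 600 CPM of Mymx on the other side, 100 genes were higher without Mymx. Causes of these shifts were not tested. Alternatives on the lowest bin, Malat1-poor cells, high totals and the cells without Mymx were chosen after seeing the data. With 1 group and 1 set of cells, no value speaks for animals or cultures.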
